A study of Mus musculus with 4 samples.

Results

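The genes described here are 40 genes of the cell cycle, from the licensing of replication origins in G1 to the separation of chromosomes in mitosis. They were chosen by name, with earlier results of these data known. Of the 40, 37 were found among the 16390 named genes of a spotted mouse array, each with 1 probe. No probe was named for Ccnb1, Cks2 or Cdc25c. Of the 37, 17 act mainly in S phase or its preparation and 20 act in G2 and mitosis.

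The study compared sorted Dclk1+ and Dclk1- cells of the mouse small intestine, in tumors and in normal epithelium, with 1 array in each of 4 groups. The Dclk1+ tumor sample pooled tumors of 7 male Dclk1CreERT2/+; ApcMin/+ mice older than 16 weeks, and the Dclk1- tumor sample came from 1 such mouse of 17 weeks. The Dclk1+ normal sample pooled 2 male Dclk1CreERT2/+ mice without ApcMin, aged 26 weeks, and the Dclk1- normal sample came from 1 such mouse of the same age. Every sample, normal ones included, thus carried 1 CreERT2 allele at Dclk1, a gene that marks tuft cells, the chemosensory cells of the gut epithelium. The Apc-Min allele truncates Apc, a brake on Wnt signalling, and gives mice intestinal adenomas. For Dclk1+ tumor, GFP-positive cells were taken by flow cytometry. The labels state no gate for the other 3 samples. Single arrays leave no replicate, so no p-value is given and each difference is one between 2 arrays. The ApcMin genotype, age, the number of mice and histology cannot be told apart.

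Cells divide in the intestinal crypt, where stem cells and their transit-amplifying daughters cycle, and stop dividing as they move up the villus. Mature tuft cells are largely post-mitotic. Before S phase, Cdc6 and Cdt1 load the ring-shaped Mcm helicase onto replication origins, and geminin blocks reloading until mitosis ends. Cyclins switch on cyclin-dependent kinases in turn, and the anaphase-promoting complex ends mitosis by marking cyclins and securin for destruction. Replication genes are mostly switched on by E2F factors, and late mitotic genes by the MuvB complex, which binds a short element called the CHR, often together with NF-Y at CCAAT boxes.

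The promoters of the members split along this line. RefSeq windows of 250 bases before to 50 after the gene start (GRCm38.p6) were at hand for 32 of the 37 members, in 33 windows, and not for Gmnn, Mcm4, Ccna2, Aurkb and Kif20a. The CHR, searched as TTTGAA on both strands, was in 13 of 18 windows of mitotic members (72.2%) and in 1 of 15 windows of S phase members (6.67%), against 17.9% of all 32851 windows. The E2F motif, searched on both strands as TTTCCCGC, TTTCGCGC, TTTGGCGC or TTTGCCGC, was in 1 of 18 mitotic windows (5.56%) and 6 of 15 S phase windows (40.0%), against 2.26% of all windows. CCAAT on either strand was in 15 of the 18 mitotic windows (83.3%) and 9 of the 15 S phase windows, against 37.4% of all windows. Matches of different motifs overlapped once among the member windows, in Mcm7, and in Mcm6 2 E2F matches overlap each other.

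Promoters of both kinds are printed, 4 of mitotic members and 2 of Mcm subunits. The 4 have both a TTTGAA match and a wide gap between Dclk1+ and Dclk1- normal cells. That gap is without subtraction of the local background, the light around each spot. With it subtracted, the log2 gap was -0.12 for Aurka, -1.08 for Ccnb2, -1.88 for Cdk1 and -2.93 for Cdc20. Capitals mark matches of the 3 motifs, and each is read 5′ to 3′ along the gene's strand.
Cdk1, chr10:69352863-69353162, minus strand: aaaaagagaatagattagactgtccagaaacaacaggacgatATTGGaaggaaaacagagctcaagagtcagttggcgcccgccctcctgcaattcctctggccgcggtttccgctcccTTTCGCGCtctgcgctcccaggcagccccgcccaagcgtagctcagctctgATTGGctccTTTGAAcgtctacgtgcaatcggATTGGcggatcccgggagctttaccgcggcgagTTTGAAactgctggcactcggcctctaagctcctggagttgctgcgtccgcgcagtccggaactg
Cdc20, chr4:118437294-118437593, minus strand: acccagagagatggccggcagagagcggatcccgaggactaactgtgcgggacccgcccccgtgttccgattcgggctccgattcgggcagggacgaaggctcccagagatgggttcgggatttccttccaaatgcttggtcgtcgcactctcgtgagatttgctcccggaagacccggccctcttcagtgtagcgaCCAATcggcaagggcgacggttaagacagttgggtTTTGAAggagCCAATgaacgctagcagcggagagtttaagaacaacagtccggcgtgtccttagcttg
Ccnb2, chr9:70421505-70421804, minus strand: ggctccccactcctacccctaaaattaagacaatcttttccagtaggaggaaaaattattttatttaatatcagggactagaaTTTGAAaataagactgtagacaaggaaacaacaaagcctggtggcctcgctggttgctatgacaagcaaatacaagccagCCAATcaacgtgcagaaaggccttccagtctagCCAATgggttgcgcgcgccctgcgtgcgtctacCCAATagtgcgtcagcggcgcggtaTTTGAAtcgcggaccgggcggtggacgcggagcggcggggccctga
Aurka, chr2:172370521-172370820, minus strand: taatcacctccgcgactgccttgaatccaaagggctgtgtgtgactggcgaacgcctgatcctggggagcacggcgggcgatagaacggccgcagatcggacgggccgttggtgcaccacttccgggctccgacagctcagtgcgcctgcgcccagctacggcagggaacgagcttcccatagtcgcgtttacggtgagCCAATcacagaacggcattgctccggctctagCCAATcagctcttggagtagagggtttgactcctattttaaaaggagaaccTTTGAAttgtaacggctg
Mcm7, chr5:138171834-138172133, minus strand: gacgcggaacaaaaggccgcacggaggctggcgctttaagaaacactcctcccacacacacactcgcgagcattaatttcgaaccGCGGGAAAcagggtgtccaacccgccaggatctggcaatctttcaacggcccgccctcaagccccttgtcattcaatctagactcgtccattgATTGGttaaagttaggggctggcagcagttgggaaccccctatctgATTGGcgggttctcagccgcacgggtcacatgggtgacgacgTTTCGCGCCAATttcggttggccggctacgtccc
Mcm6, chr1:128359656-128359955, minus strand: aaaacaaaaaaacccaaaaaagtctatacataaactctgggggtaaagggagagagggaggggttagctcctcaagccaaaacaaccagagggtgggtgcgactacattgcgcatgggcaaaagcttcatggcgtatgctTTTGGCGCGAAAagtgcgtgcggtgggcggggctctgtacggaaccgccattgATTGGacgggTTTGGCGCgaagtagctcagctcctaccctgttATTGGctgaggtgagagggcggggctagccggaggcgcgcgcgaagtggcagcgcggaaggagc
Counted from the first base of the gene as 1, a TTTGAA match begins at -18 in Cdc20 and also lies near the start in Cdk1 and Ccnb2, each time with a CCAAT match upstream of it. In the Mcm7 and Mcm6 windows there is no TTTGAA. A second Mcm7 window, chr5:138171217-138171516, is not printed. It has 1 CCAAT match and no E2F match. A match is a string of letters and not a measured binding site, and the windows of Birc5, Tk1, Tyms, Mad2l1, Nusap1, Chek1 and Ccne1 held none of the 3 motifs. Of the 12 members at least 2-fold lower in Dclk1+ than Dclk1- normal cells, 11 have a window, and TTTGAA was in 5 of these 11, CCAAT in 6 and the E2F motif in 1. Of all 33 member windows, TTTGAA was in 14 (42.4%), CCAAT in 24 (72.7%) and the E2F motif in 7 (21.2%).

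Levels are given as normalised log2 signals, that is log2 of the background-corrected spot intensity after 50 units were added and the 4 arrays were given 1 common distribution. The added 50 units set a floor: the lowest signal on any array was 5.65, and the dimmest spots called above background stood between 5.76 and 5.80. Above background means more than 2 SD over the blank spots of that array, which 63.3% to 70.9% of all probes reached. A dim gene can therefore differ several-fold in intensity and hardly at all on this scale. Probes of the same gene, where a gene had several, differed in these comparisons with an SD of 0.388 to 0.787 log2.

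The sort was checked on tuft cell markers. Dclk1 itself had a signal of 6.64 in Dclk1+ and 5.94 in Dclk1- tumor cells, and of 9.0 in Dclk1+ and 7.59 in Dclk1- normal cells. Of the 10 tuft markers examined, 7 of the 9 above background in tumor and 9 of 10 in normal epithelium were at least 2-fold higher in Dclk1+ cells, with Alox5ap the brightest.

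Most cell cycle genes had their lowest signal in the Dclk1+ cells of normal epithelium. Of the 36 members above background on at least 1 array, 29 had their lowest of the 4 signals in Dclk1+ normal cells, where 22.8% of all 13465 such genes did. The 29 became 24 with the local background subtracted and 21 with each array scaled to its 75th percentile. The share of all genes was not taken in those settings. Some of the 29, such as Bub1 (5.70) and Ttk (5.73), were not above background in Dclk1+ normal cells. Of the 37 members, 27 were above background there, against 33 in Dclk1+ tumor, 35 in Dclk1- tumor and 36 in Dclk1- normal cells. Of the 16390 named genes on the array, 12073, 11564, 10914 and 11709 were, in the same order. The member share was thus near the general share in Dclk1+ normal cells and above it in the other samples. The highest signal was in Dclk1- tumor for 17 members and in Dclk1+ tumor for 6, where 20.6% and 20.1% of all genes had theirs, in Dclk1- normal for 10 (26.4%) and in Dclk1+ normal for 3 (32.8%). The lowest was in Dclk1+ tumor for 3 (23.0%), Dclk1- tumor for 1 (28.9%) and Dclk1- normal for 3 (25.4%). The median member signal was 6.73 in Dclk1+ and 7.25 in Dclk1- tumor cells, and 6.0 in Dclk1+ and 6.69 in Dclk1- normal cells, while the median of all genes was 5.94 or 5.95 in each. In sorted bulk RNA, fewer cycling cells and less cell cycle RNA per cell cannot be told apart.

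**Figure D1:**
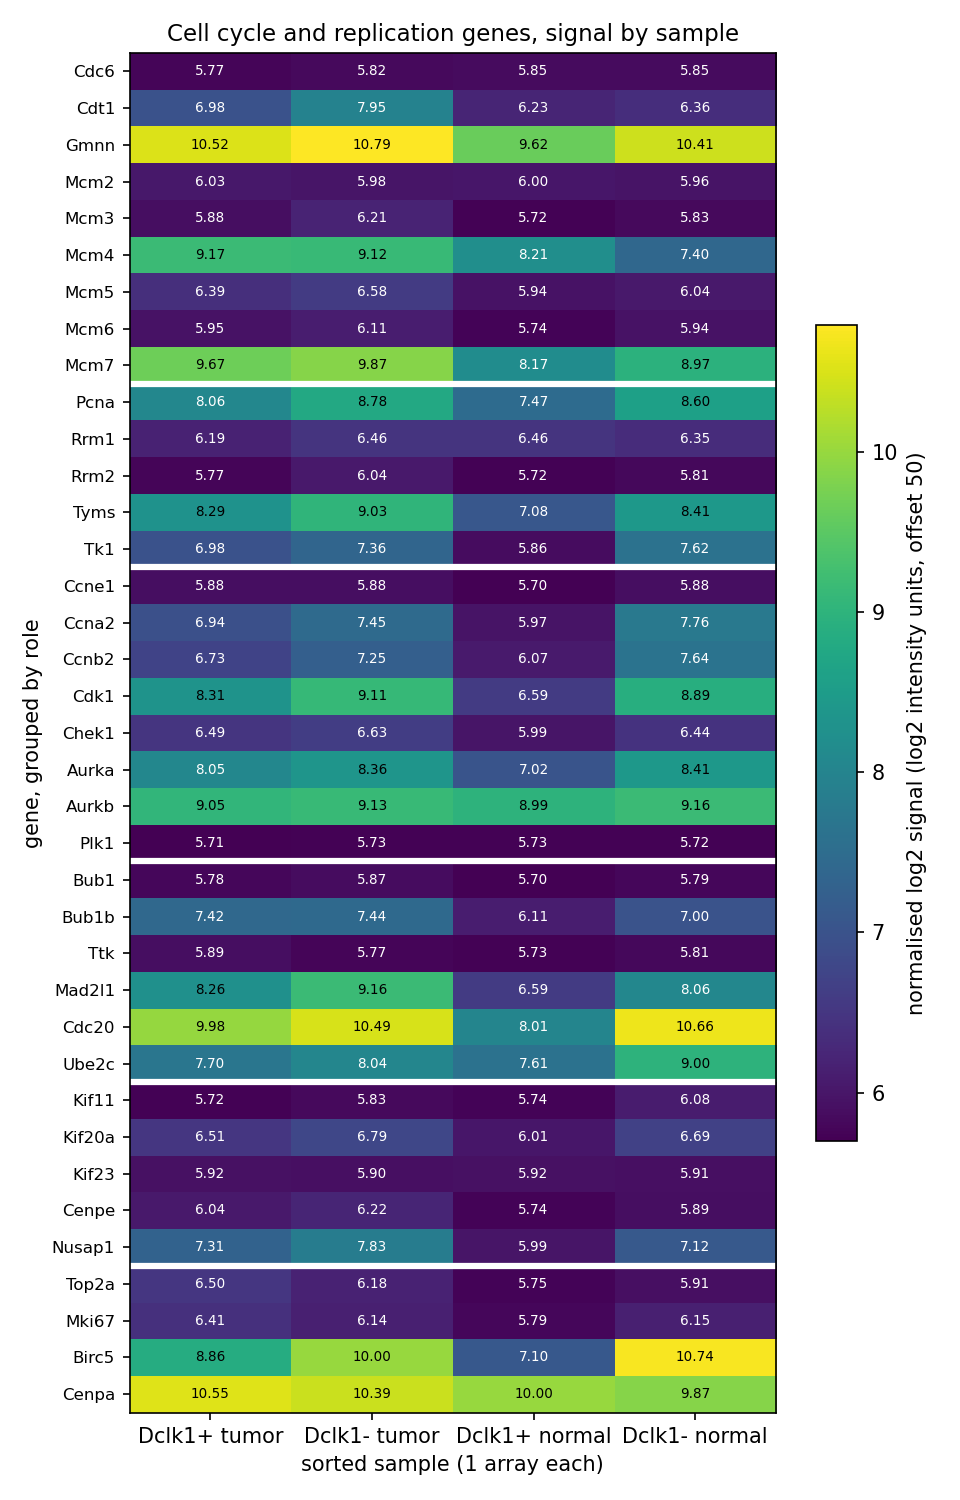
Normalised log2 signal of the 37 members (rows, grouped by role and parted by white lines) in the 4 sorted samples (columns, 1 array each), with colour and number giving the same value. The Dclk1+ normal column is the darkest for most genes, as for Cdk1 at 6.59, while Gmnn, Aurkb and Cenpa are bright in all 4 samples.

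The question put by the first pair of comparisons is how Dclk1+ cells differ from the Dclk1- cells around them. In normal epithelium 12 of 36 members (33.3%) were lower by 2-fold or more in Dclk1+ cells and 0 were higher by as much, where 5.92% and 5.66% of 12844 genes were. The 12 were Birc5, Cdc20, Cdk1, Ccna2, Tk1, Ccnb2, Mad2l1, Aurka, Ube2c, Tyms, Nusap1 and Pcna, 8 of them mitotic. The median difference of the members was -0.35, against 0.01 for all genes. With the blank level subtracted plainly and no offset, 25 members were 2-fold lower and 1 higher, where 20.1% and 20.2% of genes were. After subtraction of the local background 8 of the 12 stayed 2-fold lower, where 4.37% of genes were, the median was -0.13, and Mad2l1 (-0.97), Pcna (-0.17), Aurka (-0.12) and Nusap1 (-0.03) lost the call. In tumors 1 of 36 members was at least 2-fold lower and 0 were 2-fold higher, where 2.13% and 1.76% of 12197 genes were, and the member median was -0.23 against 0.01. Within tumor, subtracting the local background put Dclk1+ below Dclk1- cells by at least 2-fold for Cdt1 (-1.57), Mad2l1 (-1.36), Tyms (-1.08) and Aurkb (-1.08). For Birc5 (2.51) it put Dclk1+ cells above by as much. Of all genes, 2.99% were that far below and 3.18% that far above with this subtraction. In tumor 28 members were on the lower side in Dclk1+ cells and 8 on the higher side, and in normal epithelium 30 and 6. Of all genes, 5639 were on the lower and 6558 on the higher side in tumor, and 5897 and 6947 in normal epithelium.

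Among the licensing factors, most signals were dim or similar between Dclk1+ and Dclk1- cells. Mcm7, a helicase subunit, had 9.67 in Dclk1+ and 9.87 in Dclk1- tumor cells, and 8.17 in Dclk1+ and 8.97 in Dclk1- normal cells. Mcm4, another subunit of the same ring, had 9.17 in Dclk1+ and 9.12 in Dclk1- tumor cells, and 8.21 in Dclk1+ and 7.40 in Dclk1- normal cells. Mcm7 was thus lower and Mcm4 higher in Dclk1+ than in Dclk1- normal cells, by -0.80 and 0.80, although both proteins sit in 1 complex. The other subunits, Mcm2, Mcm3, Mcm5 and Mcm6, were dim, between 5.72 and 6.58 in all samples. Cdt1, the loader of the helicase, had 6.98 in Dclk1+ and 7.95 in Dclk1- tumor cells, and 6.23 in Dclk1+ and 6.36 in Dclk1- normal cells. That gap of -0.96 in tumor was just under 2-fold, and the gap in normal epithelium was -0.13. Gmnn, which encodes the Cdt1 inhibitor geminin, was bright everywhere, having 10.52 in Dclk1+ and 10.79 in Dclk1- tumor cells and 9.62 in Dclk1+ and 10.41 in Dclk1- normal cells. Cdc6, the other loader, stayed between 5.77 and 5.85.

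Several genes of DNA synthesis were lower in Dclk1+ cells of both tissues, more so in normal epithelium. Tk1, the thymidine kinase that salvages thymidine, had 6.98 in Dclk1+ and 7.36 in Dclk1- tumor cells, and 5.86 in Dclk1+ and 7.62 in Dclk1- normal cells, a difference of -0.39 in tumor and -1.77 in normal. Tyms, thymidylate synthase, had 8.29 in Dclk1+ and 9.03 in Dclk1- tumor cells, and 7.08 in Dclk1+ and 8.41 in Dclk1- normal cells. Pcna, the sliding clamp of DNA polymerases, had 8.06 in Dclk1+ and 8.78 in Dclk1- tumor cells, and 7.47 in Dclk1+ and 8.60 in Dclk1- normal cells. All 3 were lowest in Dclk1+ normal cells, with Tyms at -1.33 and Pcna at -1.13 against Dclk1- normal cells. The Pcna difference was -0.71 in tumor, and with the local background subtracted it was 0.41 in tumor and -0.17 in normal epithelium. The ribonucleotide reductase subunits Rrm1 and Rrm2 did not follow: Rrm1 lay between 6.19 and 6.46 in all samples and Rrm2 between 5.72 and 6.04.

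Of the cyclins and kinases, Cdk1, Ccna2, Ccnb2 and Aurka were also lowest in Dclk1+ normal cells. For Aurka this did not hold with the local background subtracted, where Dclk1+ tumor stood at -0.79 against Dclk1+ normal cells. Cdk1, the kinase that drives entry into mitosis, had 8.31 in Dclk1+ and 9.11 in Dclk1- tumor cells, and 6.59 in Dclk1+ and 8.89 in Dclk1- normal cells. The Cdk1 difference was -0.80 in tumor and -2.30 in normal epithelium. Its partner Ccna2, cyclin A2, had 6.94 in Dclk1+ and 7.45 in Dclk1- tumor cells, and 5.97 in Dclk1+ and 7.76 in Dclk1- normal cells. Ccnb2, cyclin B2, had 6.73 in Dclk1+ and 7.25 in Dclk1- tumor cells, and 6.07 in Dclk1+ and 7.64 in Dclk1- normal cells. Aurka, the spindle pole kinase, differed by -0.31 in tumor and -1.39 in normal epithelium, or by -0.70 and -0.12 with the local background subtracted. Aurkb, the kinase of the chromosomal passenger complex, did not share this pattern and lay between 8.99 and 9.16 in all 4 samples. With the local background subtracted, Aurkb differed by -1.08 between Dclk1+ and Dclk1- cells in tumor and by 0.27 in normal epithelium. Chek1, the replication checkpoint kinase, differed by -0.14 and -0.45, Ccne1, cyclin E1, lay between 5.70 and 5.88, and Plk1, the polo kinase, was not above background on any array.

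Genes of the spindle checkpoint and mitotic exit held the second widest gap. Cdc20, the activator of the anaphase-promoting complex, had 9.98 in Dclk1+ and 10.49 in Dclk1- tumor cells, and 8.01 in Dclk1+ and 10.66 in Dclk1- normal cells. Its difference was -0.52 in tumor, or 0.17 with the local background subtracted, and -2.65 in normal epithelium, or -2.93. Mad2l1, a checkpoint protein that holds Cdc20 back, had 8.26 in Dclk1+ and 9.16 in Dclk1- tumor cells, and 6.59 in Dclk1+ and 8.06 in Dclk1- normal cells. Ube2c, the ubiquitin-conjugating enzyme of the complex, had 7.70 in Dclk1+ and 8.04 in Dclk1- tumor cells, and 7.61 in Dclk1+ and 9.0 in Dclk1- normal cells. For Ube2c the Dclk1- normal sample stood apart from the other 3, whereas for Mad2l1 and Cdc20 the Dclk1+ normal sample did. Bub1b, the checkpoint kinase BubR1, was level in tumor at -0.02 and differed by -0.89 in normal epithelium. Bub1 and Ttk, also checkpoint kinases, stayed at or below 5.89.

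Spindle and chromosome genes were mixed. Nusap1, a microtubule bundling protein, differed by -0.52 in tumor and -1.14 in normal epithelium, or by 0.79 and -0.03 with the local background subtracted. The kinesin Kif20a differed by -0.28 and -0.67. Kif11, Kif23 and Cenpe, which encode other mitotic motors, lay between 5.72 and 6.22. Birc5, which encodes survivin of the chromosomal passenger complex, had 8.86 in Dclk1+ and 10.0 in Dclk1- tumor cells, and 7.10 in Dclk1+ and 10.74 in Dclk1- normal cells. Its differences of -1.14 in tumor and -3.63 in normal epithelium were the widest of any member in each, but the light around this spot was bright on both Dclk1- arrays, and brighter than the spot on that of tumor. The local background of Birc5 was 185 in Dclk1+ and 1130 in Dclk1- tumor cells, and 64.7 in Dclk1+ and 1240 in Dclk1- normal cells, against spot intensities of 380, 1053, 94.6 and 1832 in the same order, and with it subtracted the tumor difference was 2.51. Top2a, which untangles DNA, and Mki67, the gene of the Ki-67 antigen, went the other way in tumor, Top2a having 6.5 in Dclk1+ and 6.18 in Dclk1- tumor cells and Mki67 6.41 in Dclk1+ and 6.14 in Dclk1- tumor cells. In normal epithelium Mki67 stood at 5.79 in Dclk1+ and 6.15 in Dclk1- cells, and Top2a was not above background in Dclk1+ cells and at 5.91 in Dclk1- cells. Cenpa, the histone of the centromere, was bright in all samples, between 9.87 and 10.55.

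**Figure D2:**
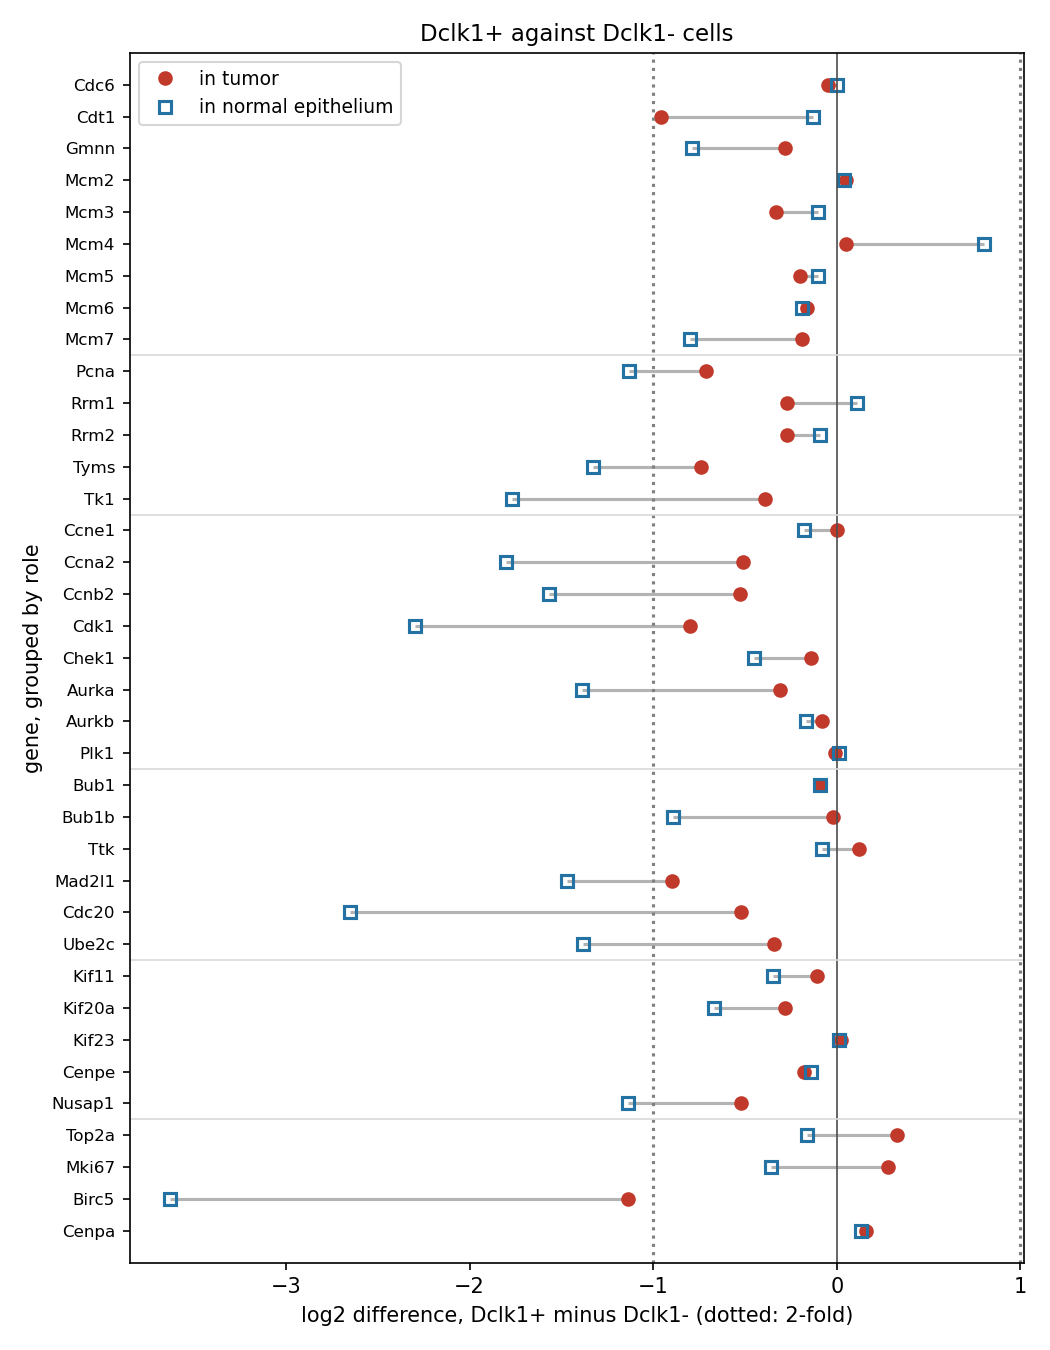
Log2 difference of each member between Dclk1+ and Dclk1- cells (x axis), in tumor (filled red circles) and in normal epithelium (open blue squares), joined by a grey line per gene, with dotted lines at 2-fold. Blue squares lie left of red circles for most mitotic genes, with Cdc20 at -0.52 in tumor and -2.65 in normal epithelium, while Cdt1 and Mcm4 have their blue square to the right.

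For most mitotic members Dclk1+ cells stood higher relative to Dclk1- cells in tumor than in normal epithelium. The log2 difference was further up in tumor for 28 of the 36 members, where it was so for 48.5% of all 13465 genes. By phase, this held for 18 of 19 mitotic members, with a median shift of 0.57, and for 10 of 17 S phase members, with a median shift of 0.03, against -0.01 over all genes. It held for 20 of the 36 members (55.6%) with the local background subtracted, 12 of 19 mitotic and 8 of 17 S phase, where it was so for 47.8% of all genes, and the median shift of the mitotic members was 0.19. Aurka, Aurkb, Mad2l1 and Cenpa were among those that then turned. Cdc20 (2.13), Cdk1 (1.5), Tk1 (1.38) and Ccna2 (1.28) had wide shifts beside Birc5 (2.49). The shift of Cdt1 was -0.83 and that of Mcm4 -0.76, the only 2 members whose gap moved down by more than 0.5. This difference between tissues was not tested.

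The second pair of comparisons sets tumor against normal epithelium within each sort. In Dclk1+ cells 10 of the 34 members above background (29.4%) were at least 2-fold higher in tumor and 0 at least 2-fold lower, where 4.27% and 4.20% of 12869 genes were. The member median was 0.61, against -0.03 for all genes, and 31 of the 34 members lay on the tumor side, where 5565 of 12869 genes did. In Dclk1- cells 3 of 36 members were 2-fold higher and 0 lower, where 5.83% and 5.24% of 12340 genes were, with a median of 0.14 against -0.02. With the blank level subtracted plainly, 25 members were higher and 1 lower in Dclk1+ cells, where 18.4% and 22.3% of genes were, and 10 higher and 2 lower in Dclk1- cells, where 20.3% and 21.8% were. The Dclk1- share of 3 in 36 stood near that of all genes. These comparisons use the same 4 arrays as those above, so they are another view of the same values.

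In Dclk1+ cells the genes 2-fold higher in tumor were Cdc20 (1.97), Birc5 (1.75), Cdk1 (1.71), Mad2l1 (1.67), Mcm7 (1.5), Nusap1 (1.32), Bub1b (1.31), Tyms (1.20), Tk1 (1.12) and Aurka (1.03). After subtraction of the local background 7 of the 10 stayed 2-fold higher, where 3.82% of genes were, while Tyms was at 0.68, Nusap1 at 0.67 and Aurka at -0.79. These 10 span helicase, precursor synthesis, mitotic kinase and checkpoint, and 7 of the 10 are mitotic. Top2a, at 6.5 in Dclk1+ tumor cells and not above background in Dclk1+ normal cells, was at least 1.67-fold higher. Ube2c (0.09), Aurkb (0.06) and Pcna (0.59) were less than 2-fold apart. With the local background subtracted, however, Aurkb was at -1.13, at least 2-fold lower in tumor.

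In Dclk1- cells 2 of the 3 genes at least 2-fold higher in tumor were licensing genes. Mcm4 had 9.12 in Dclk1- tumor and 7.40 in Dclk1- normal cells, a difference of 1.72, or -0.34 with the local background subtracted. Cdt1 had 7.95 in Dclk1- tumor and 6.36 in Dclk1- normal cells, a difference of 1.58. Mad2l1 (1.10) was the third and the single gene called in both sorts. Mitotic members were divided, 9 on the tumor side and 10 on the normal side, with a median of -0.01. Of 17 S phase members, 13 lay on the tumor side, with a median of 0.19. Of all 12340 genes above background, 5494 lay on the tumor side. Ube2c was at -0.96 and Birc5 at -0.74, so that both were higher in Dclk1- normal cells.

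**Figure D3:**
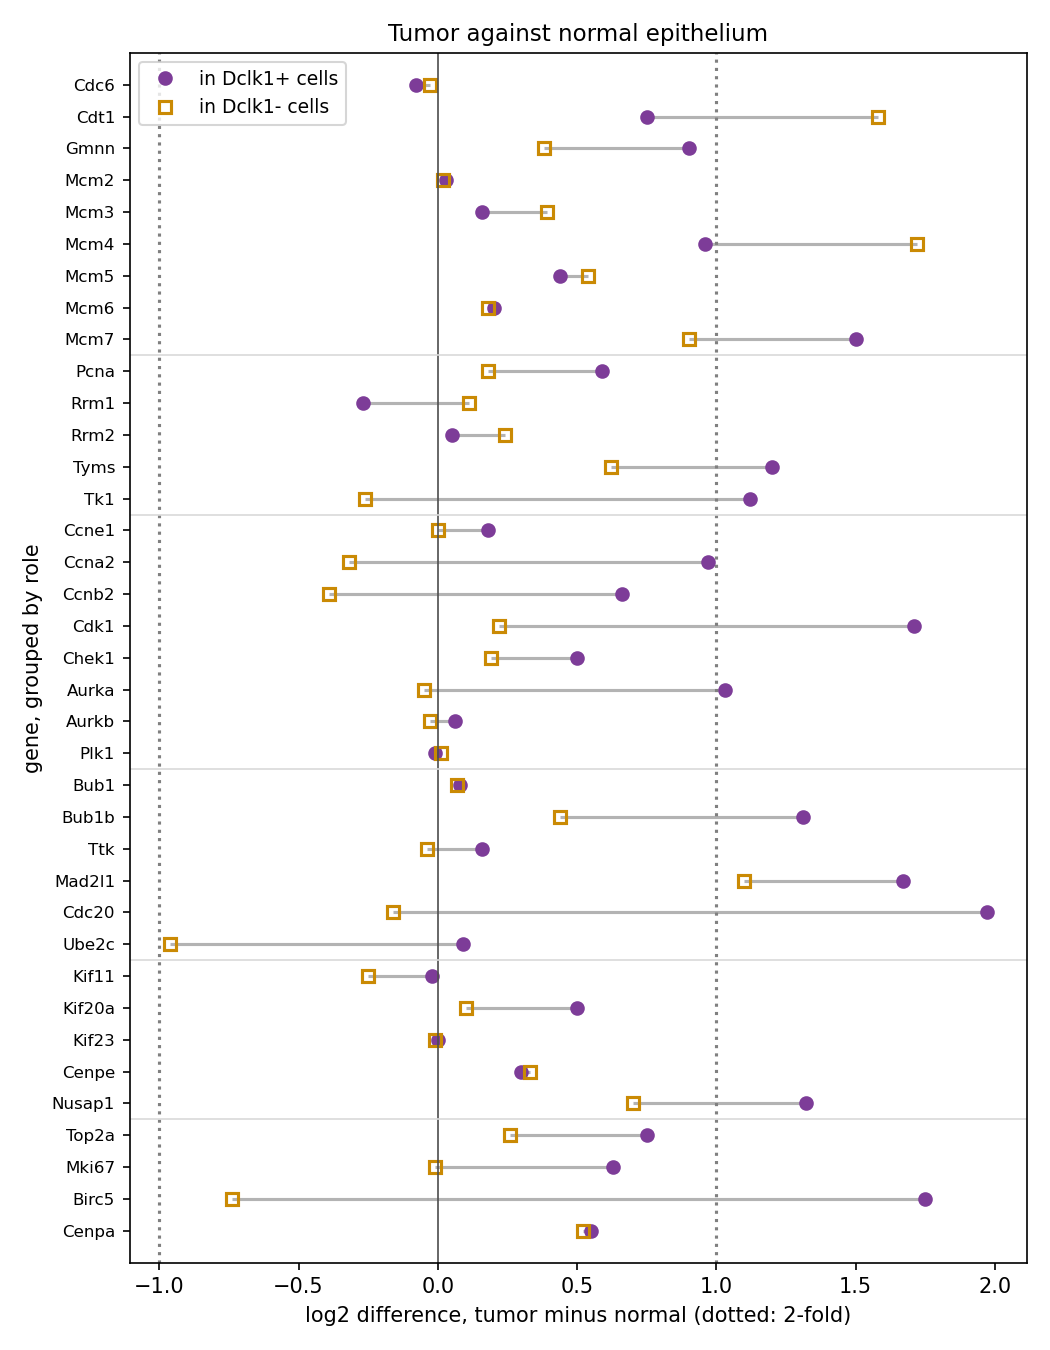
Log2 difference of each member between tumor and normal epithelium (x axis), in Dclk1+ cells (filled purple circles) and in Dclk1- cells (open yellow squares), joined by a grey line per gene, with dotted lines at 2-fold. Purple circles lie right of 1 for 10 genes, led by Cdc20 at 1.97, and yellow squares lie right of 1 only for Mcm4, Cdt1 and Mad2l1.

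**Figure D4:**
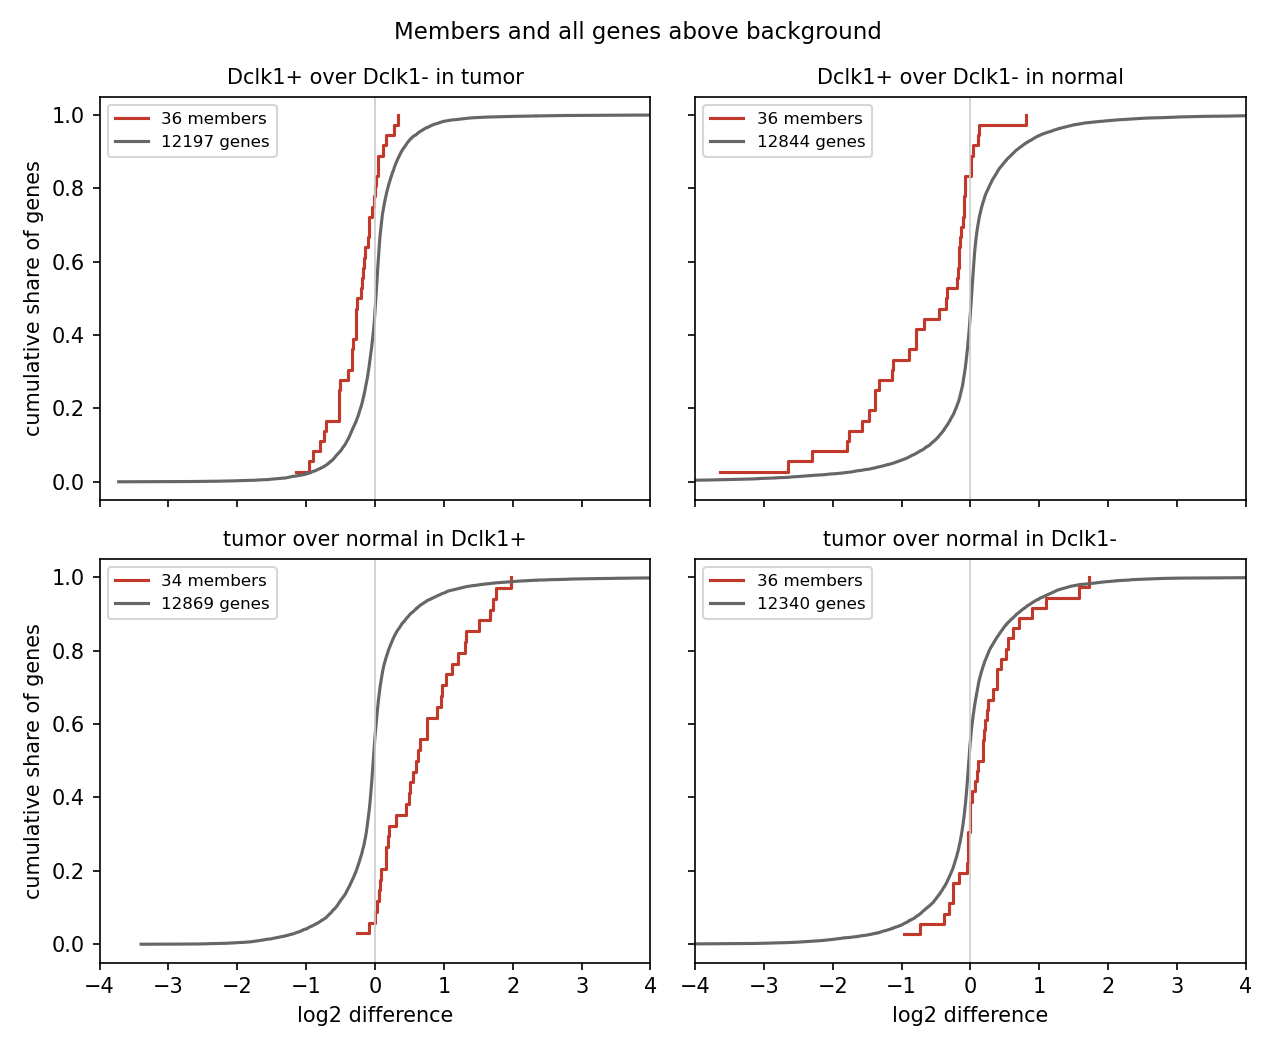
Cumulative share of genes (y axis) by log2 difference (x axis, drawn from -4 to 4) for the members (red) and for all genes above background (grey) in the 4 comparisons. The red curve stands left of the grey one for Dclk1+ against Dclk1- cells, with a member median of -0.23 in tumor and -0.35 in normal epithelium, and right of it for tumor against normal in Dclk1+ cells, with a median of 0.61.

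The values that the authors deposited show the same genes without the added 50 units. They are intensities with the blank level removed and each array scaled so that its listed probes have a median near 25, and dim probes are left empty. Tk1 had 95.5 in Dclk1+ and 131 in Dclk1- tumor cells, and 8.38 in Dclk1+ and 186 in Dclk1- normal cells, so that the ratio of Dclk1- to Dclk1+ cells was 1.37 in tumor and 22.2 in normal epithelium. Cdk1 had 357 in Dclk1+ and 537 in Dclk1- tumor cells, and 62.7 in Dclk1+ and 553 in Dclk1- normal cells. Nusap1 had 141 in Dclk1+ and 199 in Dclk1- tumor cells, and 16.1 in Dclk1+ and 113 in Dclk1- normal cells. In each of these genes 3 samples lay within a few-fold of each other and the Dclk1+ normal sample far below. These values do not subtract the local background. For Nusap1 it was 222 in Dclk1- tumor and 107 in Dclk1- normal cells, against spot intensities of 224 and 116. With it subtracted, the log2 difference in normal epithelium was -0.03 for Nusap1, against -1.88 for Cdk1 and -1.27 for Tk1. Mki67 was listed at 42.9 in Dclk1+ tumor and 19.5 in Dclk1- tumor cells, and at 4.30 in Dclk1+ and 24.8 in Dclk1- normal cells, with the Dclk1+ tumor sample the highest of the 4. Summed over the members, these intensities came to 10437.4 in Dclk1+ and 11537.5 in Dclk1- tumor cells, and to 5859.1 in Dclk1+ and 12260.7 in Dclk1- normal cells.

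**Figure D5:**
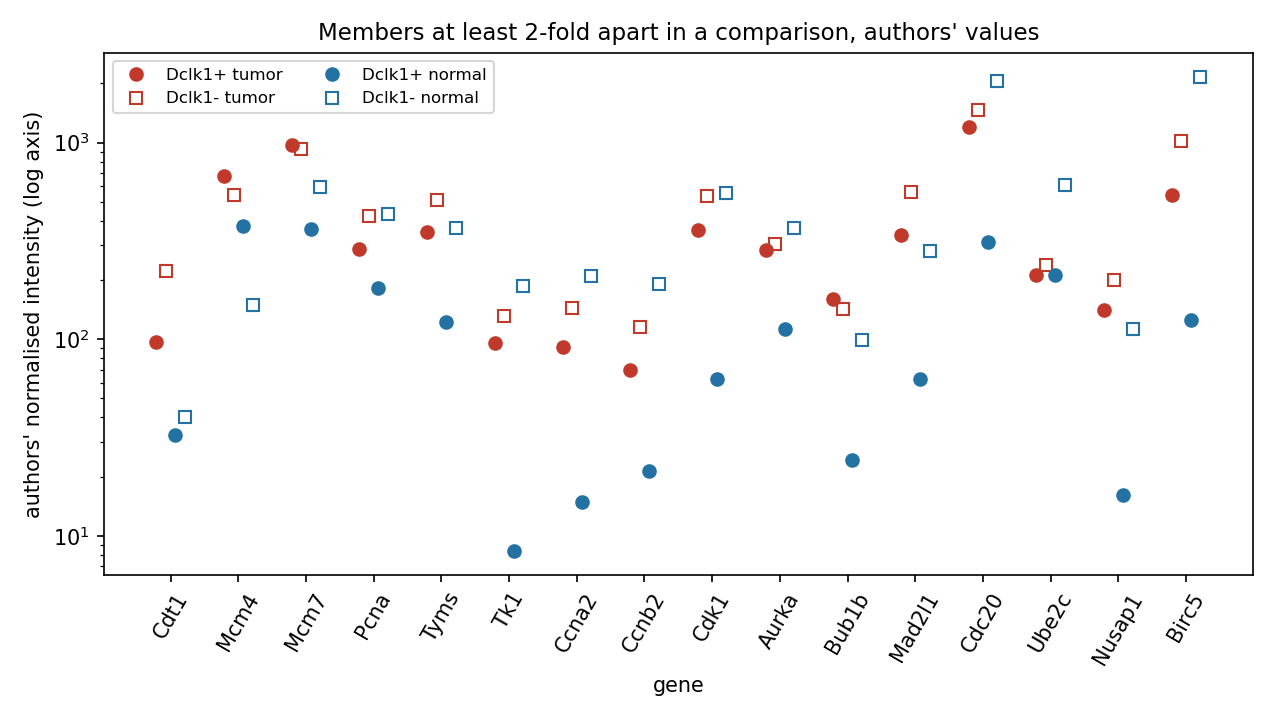
The authors' normalised intensity (log axis) of the 16 members at least 2-fold apart in any comparison, with tumor in red, normal in blue, Dclk1+ as filled circles and Dclk1- as open squares. The filled blue circle is the lowest of the 4 points for most genes, as for Tk1 at 8.38, but not for Mcm4, where the Dclk1- normal sample is lowest at 150.

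For counts and medians on the authors' scale, a probe left empty on an array was given the lowest listed value of that array. Differences of such probes depend on this fill and are not between 2 deposited values. With the fill, 24 members were lower by 2-fold or more in the Dclk1+ normal sample than in the Dclk1- one. In the same comparison 1 was higher, where 16.0% of genes were lower and 23.3% higher. For tumor against normal in Dclk1+ cells 23 were higher and 1 lower, where 13.5% and 27.2% of genes were. For Dclk1+ against Dclk1- tumor cells 3 were higher and 3 lower, where 18.2% and 11.2% of genes were. For tumor against normal in Dclk1- cells 7 were higher and 4 lower, where 14.6% and 29.2% of genes were. On this scale the median of all genes is itself shifted, by 0.35 and 0.27 between Dclk1+ and Dclk1- cells of tumor and of normal epithelium, and by -0.40 and -0.50 between tumor and normal cells of the Dclk1+ and the Dclk1- sort. The member medians there were -0.43, -1.55, 1.61 and 0.01 in the same order. The member medians thus lay below the general shift in both Dclk1+ to Dclk1- comparisons and above it in both tumor to normal comparisons.

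Other genes of the same pathways were read from lists of replication genes, mitotic genes and regulators. Neither these lists nor the marker genes of other cells were examined with the local background subtracted. Among the members, that setting took Mcm4 from 1.72 to -0.34 for tumor against normal in Dclk1- cells. Of 40 other replication genes above background in Dclk1+ cells, 11 were at least 2-fold higher in tumor (27.5%, against 4.27% of all genes) and 0 lower. Uhrf1, which carries DNA methylation through replication, led with 9.38 in Dclk1+ tumor and 6.33 in Dclk1+ normal cells, followed by the chromatin remodeller Hells (2.64), the dUTPase Dut (2.30) and the polymerase alpha subunit Pola1 (1.69). In Dclk1- cells 12 of 41 (29.3%, against 5.83% of all genes) were 2-fold higher in tumor and 0 lower, led by the origin recognition subunit Orc6 (2.80), the clamp loader subunits Rfc3 (1.99) and Rfc4 (1.91), and the single-strand binding subunit Rpa1 (1.83). For Dclk1+ against Dclk1- cells, 0 of 41 were 2-fold apart in tumor. In normal epithelium 3 of 42 (7.14%, against 5.66% of all genes) were 2-fold higher, namely Pold1 (1.78), Rpa2 (1.77) and Lig1 (1.35), which act in replication and also in DNA repair, and Dut (-1.49) was the 1 gene 2-fold lower.

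Other mitotic genes were mostly dim. In Dclk1+ cells 5 of 44 (11.4%, against 4.27% of all genes) were at least 2-fold higher in tumor and 0 lower, among them the kinase Pbk (1.97), the cohesin guardian Sgo1 (1.63), the cytokinesis factor Ect2 (1.44) and the spindle assembly factor Tpx2 (1.14). In Dclk1- cells 2 of 49 were (4.08%, against 5.83% of all genes), Pbk (1.32) and Fbxo5, an inhibitor of the anaphase-promoting complex, (1.00). The centrosome kinase Nek2 was 2-fold lower in the Dclk1+ sample of both tissues, with -1.03 in tumor and -1.39 in normal epithelium. Pbk (-1.33) was the other of 2 among 44 in normal epithelium (4.55%, against 5.92% of all genes), where the phosphatase Cdc25b (1.42) was higher. Of the E2F, MuvB and NF-Y regulators, 15 to 17 were above background in each comparison and 0 were 2-fold apart in any of the 4. E2f1 lay between 5.78 and 5.86, E2f8 and Mybl2 were not above background on any array, and Foxm1 had no named probe.

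Markers of other cells differed between the samples beside these genes. Of 5 enterocyte markers all 5 were lower by 2-fold or more in the Dclk1+ sample of each tissue, with summed authors' intensities of 2294.0 in Dclk1+ and 14787.0 in Dclk1- tumor cells and 3115.4 in Dclk1+ and 61521.8 in Dclk1- normal cells. Goblet markers were lower too, 4 of 6 in tumor and 6 of 6 in normal epithelium, with sums of 20838.0 in Dclk1+ and 42444.0 in Dclk1- tumor cells and 7603.3 in Dclk1+ and 180561.6 in Dclk1- normal cells. The crypt base stem list had 0 genes 2-fold apart between Dclk1+ and Dclk1- cells, of 4 above background in tumor and 6 in normal epithelium, with sums of 1181.9 in Dclk1+ and 735.3 in Dclk1- tumor cells and 545.3 in Dclk1+ and 379.8 in Dclk1- normal cells. Of the myeloid list, 3 of 5 genes above background were 2-fold lower in the Dclk1+ than in the Dclk1- tumor sample, with C1qb the brightest and sums of 1262.4 in Dclk1+ and 3247.7 in Dclk1- tumor cells. In normal epithelium 2 of 5 were higher in the Dclk1+ sample, with sums of 1424.6 in Dclk1+ and 437.3 in Dclk1- cells. Itgam and Adgre1 of that list were not above background on any array. The T and NK list summed to 25.2 in Dclk1+ and 30.1 in Dclk1- tumor cells and 112.0 in Dclk1+ and 223.0 in Dclk1- normal cells, with Cd3e not above background anywhere. The myeloid list was thus higher in the Dclk1+ normal than in the Dclk1- normal sample, where most cell cycle genes were lower. Between tumor and normal Dclk1+ cells, 8 of 10 tuft markers were 2-fold lower in tumor, with sums of 17895.8 in Dclk1+ tumor and 76942.5 in Dclk1+ normal cells, and 3 of 3 Paneth markers were higher, with sums of 14099.7 in Dclk1+ tumor and 157.4 in Dclk1+ normal cells. Of 5 enterocyte markers, 5 were 2-fold lower in Dclk1- tumor than in Dclk1- normal cells and 0 were 2-fold apart between Dclk1+ tumor and Dclk1+ normal cells. The part of these cells in the cell cycle differences was not tested.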

How the data were processed

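The authors deposited 1 scanner file per array. Per the file headers, a spot and the ring around it each have a median intensity at 1 wavelength, joined from scans at 3 gains. Per the labels the amplified RNA carried Cy5. The deposited series table holds intensity values with dim probes empty. Set against the scanner column, each array's values are a straight line of it.

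Spot intensities were corrected with normexp (offset 50) in limma 3.58.1 (R 4.3.3) without subtracting the local background, since it followed the spot (correlation of logs 0.921 to 0.979). Flagged spots (3 on Dclk1- tumor, 1 on Dclk1- normal) and control spots were dropped. Quantile normalization of the 4 arrays came next, and then log2. The blank spots averaged 20.4 to 23.0. Symbols were brought to RefSeq's (GRCm38.p6): Cdk1 and Cdt1 have older names on the array. Of several probes the brightest was used. Differences are between 2 arrays, with no test. Named were all 40 members, from each further list at most 4 genes per direction and comparison that were at least 2-fold apart, Dclk1, and the brightest markers of other cells. E2f1, E2f8, Mybl2, Foxm1, Itgam, Adgre1 and Cd3e were named after their values were seen. Members and lists were chosen with earlier results of these data known. The procedure was checked on simulated arrays. The 8 alternatives tried are given at the end.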

Additional observations from a re-analysis of the deposited data

Results flagged for a closer look

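For 4 members tumor and normal differed in opposite directions in the 2 sorts, with at least 1 of the 2 differences reaching 2-fold. Birc5 was at 1.75 for tumor against normal in Dclk1+ cells and at -0.74 in Dclk1- cells. Cdc20 was at 1.97 in Dclk1+ cells and -0.16 in Dclk1- cells. Tk1 was at 1.12 in Dclk1+ cells and -0.26 in Dclk1- cells. Aurka was at 1.03 in Dclk1+ cells and -0.05 in Dclk1- cells. The negative values of Cdc20, Tk1 and Aurka are smaller than the SD of 0.709 between probes of a gene in that comparison. With 1 array a group, these differences between the sorts were not tested. With the local background subtracted, the opposite directions do not hold for Aurka (-0.79 in Dclk1+ and -0.20 in Dclk1- cells) or Tk1 (1.01 in Dclk1+ and 0.40 in Dclk1- cells), and they do for Cdc20 (2.49 and -0.61) and Birc5 (1.81 and -3.16).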

How the results depend on the processing

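No paired analysis was possible because each group has 1 array. A list median was taken as unmoved within 0.25 log2 and a count within 1.5-fold. A threshold of 3 SD, no filter and averaging probes leave the values of the members unchanged, so no direction could change under them. The 26 differences of 2-fold or more kept their direction under 7 of the 8 alternatives, those settings included. With the local background subtracted 23 of 26 did, and Birc5 for Dclk1+ against Dclk1- in tumor (2.51), Aurka for tumor against normal in Dclk1+ cells (-0.79) and Mcm4 for tumor against normal in Dclk1- cells (-0.34) reversed. The 2-fold call was kept there by 8 of 12 for Dclk1+ against Dclk1- in normal (median -0.13), by 7 of 10 between tumor and normal Dclk1+ cells, by 2 of 3 between tumor and normal Dclk1- cells, and by 0 of 1 in the Dclk1+ sample of tumor. That setting also gave a median of 0.31 for tumor against normal in Dclk1+ cells, with 1 member (Aurkb) lower, where 4.13% of genes were. It gave 1 higher and 4 lower for Dclk1+ against Dclk1- in tumor, where 3.18% and 2.99% of genes were. For tumor against normal in Dclk1- cells it gave 1 lower, where 5.45% of genes were. An offset of 16 gave medians of -0.80 for Dclk1+ against Dclk1- in normal, and 0.92 for tumor against normal in Dclk1+ cells. With it 16 members were higher for tumor against normal in Dclk1+ cells, where 7.4% of genes were. In the Dclk1+ sample of tumor 2 were lower, where 4.63% of genes were. For tumor against normal in Dclk1- cells 1 was lower, where 8.17% of genes were. Plain subtraction of the blank mean gave medians of -0.60, -1.85 and 1.80 for the Dclk1+ to Dclk1- comparison of tumor, that of normal, and tumor against normal in Dclk1+ cells. Its counts of higher and lower members were 1 and 8, 1 and 25, and 25 and 1 in those comparisons and 10 and 2 for tumor against normal in Dclk1- cells. For Dclk1+ against Dclk1- in tumor, 13.8% of genes were higher and 15.9% lower with this subtraction. In the authors' table empty cells were set to the lowest listed value of their array. It then gave medians of -1.55 for Dclk1+ against Dclk1- in normal and 1.61 for tumor against normal in Dclk1+ cells. Its counts of higher and lower members were 3 and 3, 1 and 24, 23 and 1, and 7 and 4 in the order above. Scaling to the 75th percentile gave 2 members lower for Dclk1+ against Dclk1- in tumor, where 2.48% of genes were. This scaling shifted the median of all genes by 0.13 and 0.14 for the Dclk1+ to Dclk1- comparison of tumor and of normal. A threshold of 3 SD and no filter moved none of these results, and averaging probes changes nothing for members with 1 probe. Counts added after seeing the data were 21 (75th percentile scaling) to 29 members lowest in Dclk1+ normal cells, and 20 (local background subtracted) to 31 members with the Dclk1+ difference further up in tumor. The cause of these changes was not tested. Members near the floor, such as Plk1, Mcm2 or Kif23, are limited by signal over background.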

Other observations

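The light around the spots differed between arrays for several bright members. For Mcm4 the local background was 407 in Dclk1+ and 530 in Dclk1- tumor cells, and 31.7 in Dclk1+ and 35.9 in Dclk1- normal cells, against spot intensities of 466, 572, 244 and 147 in the same order. For Aurka it was 214 in Dclk1+ and 306 in Dclk1- tumor cells, and 44.9 in Dclk1+ and 266 in Dclk1- normal cells, against spot intensities of 209, 333, 87.6 and 329. For Cdk1 it was 110 in Dclk1+ and 383 in Dclk1- tumor cells, and 19.8 in Dclk1+ and 82.8 in Dclk1- normal cells, against 257, 566, 57.6 and 485. With the local background subtracted, the Cdk1 difference between Dclk1+ and Dclk1- cells was -0.28 in tumor and -1.88 in normal epithelium.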
